A study of Mus musculus with 6 samples.

Results

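The 10 genes described here carry out presentation of peptides on MHC class I molecules: the heavy chains H2-K1 and H2-D1, their light chain B2m, the peptide transporter Tap1 and Tap2 with its partner Tapbp, the immunoproteasome subunits Psmb8, Psmb9 and Psmb10, and the transactivator Nlrc5. They were taken from the table by gene name, each matched 1 row, and they are 10 of the 57180 genes listed. All 10 had a mean of at least 1 TPM (a length-adjusted share of a library's transcripts) over the 6 libraries and were tested.

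RNA was sequenced from lymphocytes isolated from tumors of mice bearing Hepa1-6, a mouse hepatoma cell line. All mice were injected through the tail vein with the TREND system, which carries plasmids for CasRx, an RNA-guided nuclease that cuts RNA rather than DNA. In the SLC43A2 sgRNA group (3 libraries, genotype label SLC43A2 knockdown) the guide targeted Slc43a2, which encodes an amino acid transporter of the cell membrane, and in the Mock sgRNA group (3 libraries, genotype label Mock) it was a mock guide. The labels used here give no strain, sex, age or time after injection, and nothing in them says whether each library came from a separate mouse, so p-values measure the spread between these libraries, which may be technical. The lymphocytes were not reported as sorted by type, and in such bulk RNA fewer cells of a type and less RNA per cell cannot be told apart.

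MHC class I molecules show fragments of a cell's own proteins to CD8 T cells. Proteasomes cut the proteins, the TAP transporter moves the fragments into the endoplasmic reticulum, and tapasin helps load them onto a heavy chain paired with beta-2 microglobulin. Interferon gamma is known to raise these genes together, in part through IRF1, and to exchange the catalytic subunits of the constitutive proteasome for those of the immunoproteasome; NLRC5 is the transactivator of class I genes, as CIITA is of class II genes. Lymphocytes express class I genes at high levels.

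The guide's target stood at 3.5, 2.4 and 4.15 TPM in SLC43A2 sgRNA libraries and at 6.68, 4.18 and 4.79 TPM in Mock sgRNA libraries, a difference that did not pass the threshold (log2 difference -0.52, limma adjusted p = 0.113). Every SLC43A2 sgRNA value of this gene lay below every Mock sgRNA value. Over 19 alternatives its log2 difference was -0.65 to -0.20 and its adjusted p 0.0757 to 0.405. So the target was lower in direction, but the labelled knockdown was not called at the level of RNA. The group names below are those of the labels. T cell markers were present: all 18 listed genes were tested, and they summed to 9570 to 10075 TPM in SLC43A2 sgRNA and 11069 to 12565 TPM in Mock sgRNA libraries, with Trbc2 the most abundant. Of the 18, 5 fell and 2 rose, where 22.2% and 22.8% of all tested genes did, a background for each cell list here. The fallen include Cd3g (log2 difference -1.06) and Trbc2 (-0.34), which belong to the transcripts used for the T cell receptor and CD3 scaling below. The other transcripts of that scaling, Trac (0.11), Trbc1 (-0.16), Cd3d (-0.34) and Cd3e (-0.32), were not called. The 2 that rose were Cd247 (0.63) and Cd2 (0.58). All 14 tested B cell markers fell, and the list summed to 40.5 to 45.2 TPM in SLC43A2 sgRNA and 414 to 536 TPM in Mock sgRNA libraries. In the macrophage and monocyte list 13 of 14 fell, with sums of 78.9 to 87.7 TPM in SLC43A2 sgRNA and 697 to 843 TPM in Mock sgRNA. In the neutrophil list 8 of 9 fell (106 to 128 TPM in SLC43A2 sgRNA, 461 to 652 TPM in Mock sgRNA), and in the erythroid list 7 of 8 (40.8 to 51.9 TPM in SLC43A2 sgRNA, 963 to 1123 TPM in Mock sgRNA). Plasma cell genes, led by Igkc, summed to 981 to 1060 TPM in SLC43A2 sgRNA and 23275 to 24886 TPM in Mock sgRNA libraries, with 8 of 12 lower and 1 higher. In the NK cell list 9 of 10 fell and 1 rose (207 to 223 TPM in SLC43A2 sgRNA, 315 to 395 TPM in Mock sgRNA), and in the dendritic cell list 3 of 6 fell (219 to 234 TPM in SLC43A2 sgRNA, 323 to 366 TPM in Mock sgRNA). Of the hepatocyte and hepatoma list 1 of 3 tested genes fell, and Alb, Ahsg, Hnf4a, Serpina1a and Ttr were listed at 0 in all 6 libraries. No fibroblast gene passed the filter, and in the endothelial list 1 of 2 rose and 1 fell. The Y-linked gene Eif2s3y averaged 1.03 TPM in SLC43A2 sgRNA and 51.4 TPM in Mock sgRNA libraries, and Ddx3y 0.48 and 18.5 TPM. The X-linked noncoding RNA Xist was present in both groups, at 11.0 TPM in SLC43A2 sgRNA and 4.31 TPM in Mock sgRNA libraries. So the groups differ in sex chromosome transcripts too. The part of these differences in the class I results was not tested.

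The 10 genes did not move together. Between SLC43A2 sgRNA and Mock sgRNA libraries, Tap1 and Tap2 were higher and H2-K1, B2m and Psmb10 were lower at an adjusted p under 0.05 (limma over all 13759 genes tested, Benjamini-Hochberg), while H2-D1, Tapbp, Psmb8, Psmb9 and Nlrc5 did not pass. So 2 of 10 rose and 3 fell, where 22.8% of all tested genes rose and 22.2% fell. With 45.1% of the whole table called, 5 of 10 is near the background. All 10 genes averaged at least 50 TPM. Among the 2679 genes at that level, a background chosen after the data were seen, 44.4% rose and 15.8% fell. The median log2 difference of the 10 genes was 0.18, beside 0.03 for all tested genes and 0.37 for those of at least 50 TPM. The groups did not overlap for 5 of the 10 genes, beside 57.0% of all tested genes. Together the 10 genes made up 1.58%, 1.65% and 1.63% of SLC43A2 sgRNA libraries and 1.94%, 1.92% and 1.92% of Mock sgRNA libraries, most of it B2m.

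**Figure D1:**
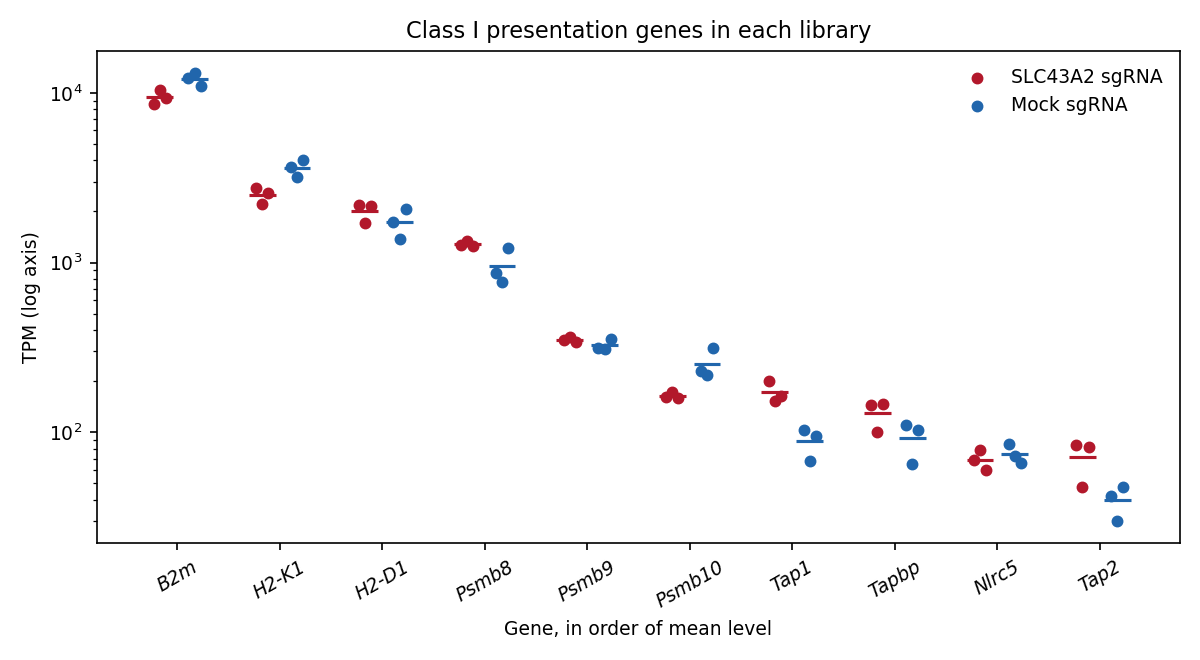
TPM of each of the 10 genes in each library on a log axis, with SLC43A2 sgRNA libraries in red, Mock sgRNA libraries in blue, 3 points a group and a bar at the group mean. Tap1 points of SLC43A2 sgRNA lie above those of Mock sgRNA, and H2-K1, B2m and Psmb10 points lie below. The groups mix for H2-D1, Psmb9, Tapbp and Nlrc5, and narrowly for Tap2.

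By level, the order was B2m, H2-K1, H2-D1, Psmb8 and Psmb9 in both groups, with each gene's lowest library above the next gene's highest. Below these, SLC43A2 sgRNA libraries had Tap1 (173 TPM), Psmb10 (164 TPM), Tapbp (130 TPM), Tap2 (71.1 TPM) and Nlrc5 (68.7 TPM), and the ranges of Tap1 and Psmb10 and those of Tap2 and Nlrc5 overlapped. Mock sgRNA libraries had Psmb10 (254 TPM), Tapbp (92.8 TPM), Tap1 (88.4 TPM), Nlrc5 (74.5 TPM) and Tap2 (39.9 TPM), and the range of Psmb10 overlapped that of Psmb9 above it, as did those of Tapbp and Tap1 and of Tap1 and Nlrc5. Tap1 therefore stood in sixth place in SLC43A2 sgRNA libraries and eighth in Mock sgRNA libraries.

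The classical heavy chain genes H2-K1 and H2-D1, which encode the peptide-binding chains K and D, did not share a call: H2-K1 fell and H2-D1 did not pass. H2-K1 (ENSMUSG00000061232; GRCm38 chromosome 17, 33996017 to 34000347, minus strand) stood at 2743, 2223 and 2569 TPM in SLC43A2 sgRNA libraries and at 3669, 3198 and 4005 TPM in Mock sgRNA libraries. Every SLC43A2 sgRNA value lay below every Mock sgRNA value. H2-K1 averaged 2512 ± 265 TPM in SLC43A2 sgRNA and 3624 ± 405 TPM in Mock sgRNA (SD, n = 3 each), a fall that passed the threshold (log2 difference -0.53, SE 0.12, limma adjusted p = 0.0129). H2-D1 (ENSMUSG00000073411; chromosome 17, 35262730 to 35267499, plus strand) stood at 2196, 1708 and 2150 TPM in SLC43A2 sgRNA libraries and at 1721, 1373 and 2071 TPM in Mock sgRNA libraries. Its groups overlapped, with a log2 difference of 0.24 and an SE of 0.17 (limma adjusted p = 0.299). Within a library, H2-K1 exceeded H2-D1 by 1.25, 1.30 and 1.20 times in SLC43A2 sgRNA and by 2.13, 2.33 and 1.93 times in Mock sgRNA, ratios of TPM + 1 that do not depend on how a library is scaled. This ratio differed by -0.77 on the log2 scale (SE 0.09) without overlap, and the exact two-sided permutation p of 0.1 (0.133 adjusted over the 8 ratios computed) is the smallest that 3 libraries against 3 can give. The H2-K1 call was lost with no filter on low values (adjusted p = 0.0664), with quantile normalization (adjusted p = 0.0756) and with scaling by T cell receptor and CD3 transcripts (adjusted p = 0.163; range over all 20 alternatives 0.000815 to 0.163), while its log2 difference stayed between -0.82 and -0.24. In GENCODE M21, 9.6% of the 50-base words of H2-K1 transcripts and 12.8% of those of H2-D1 also occur in transcripts of other genes, mostly other class I heavy chains, so part of either value can come from reads of its relatives.

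The start regions of both heavy chain genes are shown because H2-K1 was called and H2-D1 was not, while these sequences are much alike: in a global alignment of the 300-base windows, 214 of 239 aligned bases (89.5%) were identical. The windows run from 250 bases before to 50 bases after the gene's start, counted as 0, in RefSeq (GRCm38.p6). They lie for H2-K1 at chr17:34000298-34000597 on the minus strand and for H2-D1 at chr17:35262844-35263143 on the plus strand. RefSeq gave 2 windows for H2-K1, and the one with its start nearest to that of GENCODE M21 was used. B2m, on another chromosome, follows at chr2:122147437-122147736 on the plus strand. Capitals mark matches on either strand to 5 motifs, overlaps allowed. These were the interferon-stimulated response element (GAAA, any 2 bases, GAAA), the gamma interferon activation site (TTC, any 3 bases, GAA), an NF-kB site (GGGA, any base, T, any 2 bases, CC), the core of the X2 box (TGACG) and the CCAAT box (CCAAT).
H2-K1: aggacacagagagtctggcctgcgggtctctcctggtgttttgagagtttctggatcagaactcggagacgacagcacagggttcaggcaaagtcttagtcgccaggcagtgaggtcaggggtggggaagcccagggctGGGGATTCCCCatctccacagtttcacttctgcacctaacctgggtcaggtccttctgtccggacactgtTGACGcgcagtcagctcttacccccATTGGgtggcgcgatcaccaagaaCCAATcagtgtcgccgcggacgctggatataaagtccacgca
H2-D1: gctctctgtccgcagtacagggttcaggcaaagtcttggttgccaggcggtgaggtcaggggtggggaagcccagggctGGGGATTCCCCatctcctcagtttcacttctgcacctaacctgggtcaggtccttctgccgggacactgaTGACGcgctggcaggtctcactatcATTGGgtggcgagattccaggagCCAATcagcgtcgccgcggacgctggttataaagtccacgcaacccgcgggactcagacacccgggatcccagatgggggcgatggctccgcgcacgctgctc
B2m: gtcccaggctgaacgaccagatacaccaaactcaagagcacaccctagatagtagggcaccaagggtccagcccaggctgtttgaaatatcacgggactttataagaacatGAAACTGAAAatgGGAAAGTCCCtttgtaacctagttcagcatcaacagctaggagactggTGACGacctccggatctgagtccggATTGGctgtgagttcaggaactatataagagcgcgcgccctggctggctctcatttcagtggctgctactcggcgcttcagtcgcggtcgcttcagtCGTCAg
Both heavy chain windows held the same NF-kB letters, matched on each strand 1 base apart, followed by a TGACG and by CCAAT boxes in both orientations. The TGACG began at base -41 in H2-K1 and -101 in H2-D1, and the ATTGG at -16 and -76. The matches kept their order and nearly their spacing, so these offsets lie in where RefSeq places the 2 starts. The B2m window held a response element match at bases -139 to -130 from the start, beside an NF-kB match on the other strand, a TGACG on each strand and a CCAAT box. Of the 8 genes with a window in the RefSeq table, 3 held the NF-kB letters (4.16% of 32851 windows of all genes), 1 the response element (3.44%), 1 the gamma activation site (8.30%), 5 TGACG (20.8%) and 6 CCAAT (37.4%). The 8 windows are not independent: those of H2-K1 and H2-D1 are much alike, and those of Psmb9 and Tap1 share 275 of 300 bases. The counts are of letter matches, not measured binding. Letters had to match in full, so an element that departs from them was not counted. Both heavy chain windows hold tttcacttct after the NF-kB letters. This resembles the response element on the other strand but does not match its letters in full. The count for that element therefore does not show that the other windows lack one.

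B2m (ENSMUSG00000060802; chromosome 2, 122147686 to 122153083, plus strand), the light chain shared by all class I molecules, was the most abundant transcript of all genes in every SLC43A2 sgRNA library and ranked 5, 3 and 6 in Mock sgRNA libraries. It stood at 8573, 10347 and 9357 TPM in SLC43A2 sgRNA libraries and at 12287, 13060 and 10935 TPM in Mock sgRNA libraries, with no overlap. The fall passed narrowly (log2 difference -0.36, SE 0.11, limma adjusted p = 0.0293). Its call was lost in 9 of 20 alternatives, and its direction turned in 1 other. It was lost when SLC43A2 sgRNA replicate 1 (adjusted p = 0.118) or 3 (0.0958) or Mock sgRNA replicate 1 (0.0893) or 2 (0.0834) was left out. It was also lost once trends with a gene's total exon length and the GC content of its longest transcript were removed (log2 difference -0.10, adjusted p = 0.451). Under quantile normalization its direction turned (log2 difference 0.57, adjusted p = 0.00356; range over all 20 alternatives 0.00356 to 0.627). The ratio of B2m to the summed H2-K1 and H2-D1 was 1.74, 2.63 and 1.98 in SLC43A2 sgRNA and 2.28, 2.86 and 1.80 in Mock sgRNA libraries, overlapping groups whose log2 difference of -0.12 (SE 0.26) had an exact permutation p of 0.7.

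Of the nonclassical heavy chains, 13 of the 18 genes in the table were tested. Among them 7 fell, 1 rose and 5 did not pass (median log2 difference -0.74), where 22.2% of all tested genes fell and 22.8% rose. The Qa-region gene H2-Q7 stood at 467, 361 and 439 TPM in SLC43A2 sgRNA libraries and at 874, 777 and 1019 TPM in Mock sgRNA libraries (log2 difference -1.07, limma adjusted p = 0.00181), with its neighbour H2-Q6 at -0.73 and the low gene H2-Q10 at -1.51. These Q genes share many words (26.4% of those of H2-Q7 and 32.0% of those of H2-Q6 occur in other genes), so their separate levels are uncertain; they were named after their values were seen. The largest falls were those of Cd1d1, which presents lipids to NKT cells, at 4.33 TPM in SLC43A2 sgRNA and 19.5 TPM in Mock sgRNA (log2 difference -1.95, adjusted p = 0.000226), and of H2-Q2, at 0.32 TPM in SLC43A2 sgRNA and 4.01 TPM in Mock sgRNA. The gene that rose was H2-T23, which encodes Qa-1, the ligand of the inhibitory receptor NKG2A on NK and CD8 T cells. It stood at 836, 594 and 761 TPM in SLC43A2 sgRNA libraries and at 455, 446 and 535 TPM in Mock sgRNA libraries, with no overlap (log2 difference 0.60, adjusted p = 0.0188). The H2-T23 call was lost in 6 of 20 alternatives, among them without SLC43A2 sgRNA replicate 1 or 3 and without Mock sgRNA replicate 1 or 2 (adjusted p up to 0.0695), and 13.6% of its 50-base words occur in other genes.

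The transporter genes rose. Tap1 and Tap2 encode the paired subunits of the transporter that carries peptides into the endoplasmic reticulum. Tap1 (ENSMUSG00000037321; chromosome 17, 34187553 to 34197225, plus strand) stood at 201, 153 and 164 TPM in SLC43A2 sgRNA libraries and at 103, 67.4 and 95.2 TPM in Mock sgRNA libraries. All SLC43A2 sgRNA values exceeded all Mock sgRNA values. Tap1 averaged 173 ± 25.0 TPM in SLC43A2 sgRNA and 88.4 ± 18.6 TPM in Mock sgRNA (SD, n = 3 each), a 1.95-fold higher level (log2 difference 0.97, SE 0.19, limma adjusted p = 0.00723). Its call held in all 20 alternatives, with log2 differences of 0.74 to 1.26 and adjusted p of 0.00176 to 0.0296. Tap2 (ENSMUSG00000024339; chromosome 17, 34203527 to 34216321, plus strand) stood at 83.7, 47.5 and 82.0 TPM in SLC43A2 sgRNA and at 41.8, 30.2 and 47.7 TPM in Mock sgRNA libraries. SLC43A2 sgRNA replicates 1 and 3 lay well above all Mock sgRNA libraries, and replicate 2 lay just under the highest of these. Its rise (log2 difference 0.80, SE 0.27) barely passed (limma adjusted p = 0.0475) and was lost in 8 of 20 alternatives, among them with SLC43A2 sgRNA replicate 1 (adjusted p = 0.141) or 3 (0.14) or Mock sgRNA replicate 1 (0.0931) or 2 (0.125) left out. Its log2 difference was 0.60 to 1.08 over the alternatives and its adjusted p 0.0077 to 0.141, with 0.00958 when replicate number was a block. The ratio of Tap1 to Tap2 did not separate the groups (2.38, 3.18 and 1.98 in SLC43A2 sgRNA; 2.42, 2.19 and 1.97 in Mock sgRNA; exact permutation p = 0.6), and its log2 difference of 0.17 had an SE of 0.22. GENCODE M21 places Tap2 exons over 533 bases of Gm15821 and 165 bases of Gm20496 on the other strand, genes that average 0.18 and 0.58 TPM over the 6 libraries.

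Tapbp (ENSMUSG00000024308; chromosome 17, 33915899 to 33929292, plus strand) encodes tapasin, which bridges the transporter and the heavy chain. It stood at 146, 100 and 146 TPM in SLC43A2 sgRNA libraries and at 110, 64.7 and 104 TPM in Mock sgRNA libraries. Both groups had their lowest value in replicate 2, and the groups overlapped. Tapbp was not called, at a log2 difference of 0.50 with an SE of 0.25 (limma adjusted p = 0.139). It passed in 3 of 20 alternatives: array weights (adjusted p = 0.0387), scaling to T cell receptor and CD3 transcripts (0.0371) and replicate number as a block (0.0221, SE 0.11). Tapbp stood at 0.726, 0.655 and 0.892 times Tap1 in SLC43A2 sgRNA and at 1.07, 0.960 and 1.09 times in Mock sgRNA libraries, with no overlap (log2 difference -0.47, SE 0.14, exact permutation p = 0.1).

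Tap1 lies head to head with Psmb9, and this start region is shown because it serves a gene that rose and one that did not pass. Psmb9, Tap1, Psmb8 and Tap2 lie within 34335 bases of chromosome 17, the RefSeq starts of Psmb9 and Tap1 are 226 bases apart, and their windows share 275 of 300 bases. The Tap1 window, chr17:34187306-34187605 on the plus strand in GRCm38.p6, is printed with motif matches in capitals as above.
Tap1: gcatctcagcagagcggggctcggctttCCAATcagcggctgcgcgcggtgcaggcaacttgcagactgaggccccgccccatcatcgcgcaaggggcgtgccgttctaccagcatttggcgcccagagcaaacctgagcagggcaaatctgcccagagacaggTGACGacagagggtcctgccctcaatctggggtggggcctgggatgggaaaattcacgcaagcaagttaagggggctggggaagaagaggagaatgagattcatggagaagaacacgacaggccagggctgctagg
It held 1 CCAAT box near the Psmb9 side and 1 TGACG between the starts, which Psmb9 reads on the other strand. GENCODE M21 gives the exons of Psmb9 and Tap1 212 bases in common on opposite strands, 5.8% of Psmb9 and 3.9% of Tap1, so reads there cannot be assigned without strand information. On the other strand, Psmb8 also shares 14.7% of its exon bases with Gm20496 and Tapbp 24.9% with Gm19412, genes that average 0.58 and 1.07 TPM over the 6 libraries.

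Of the 3 immunoproteasome subunits Psmb10 fell, and Psmb8 and Psmb9 did not pass. Psmb8 (LMP7; ENSMUSG00000024338; chromosome 17, 34197721 to 34201454, plus strand) stood at 1270, 1331 and 1251 TPM in SLC43A2 sgRNA libraries and at 862, 772 and 1225 TPM in Mock sgRNA libraries. The groups did not overlap, though Mock sgRNA replicate 3 came close, and it was not called (log2 difference 0.46, SE 0.17, limma adjusted p = 0.0680). Without that library Psmb8 passed (log2 difference 0.65, adjusted p = 0.00412). Psmb9 (LMP2; ENSMUSG00000096727; chromosome 17, 34181987 to 34187764, minus strand) stood at 351, 363 and 341 TPM in SLC43A2 sgRNA and at 313, 309 and 353 TPM in Mock sgRNA libraries, overlapping groups with a log2 difference of 0.12 (SE 0.10, limma adjusted p = 0.387). Psmb10 (MECL-1; ENSMUSG00000031897; chromosome 8, 105935735 to 105938444, minus strand) stood at 161, 171 and 159 TPM in SLC43A2 sgRNA libraries and at 229, 218 and 314 TPM in Mock sgRNA libraries. All of its SLC43A2 sgRNA values lay below all of its Mock sgRNA values, and the fall passed (log2 difference -0.61, SE 0.16, limma adjusted p = 0.0197), but not without SLC43A2 sgRNA replicate 1 (0.0642) or 3 (0.0679) or with scaling to T cell receptor and CD3 transcripts (0.0787).

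Each immunoproteasome subunit replaces a constitutive counterpart at a catalytic site: Psmb8 replaces Psmb5, Psmb9 replaces Psmb6 and Psmb10 replaces Psmb7. The constitutive genes all rose. Psmb5 averaged 655 ± 37.7 TPM in SLC43A2 sgRNA and 367 ± 63.9 TPM in Mock sgRNA libraries (log2 difference 0.85). Psmb6 averaged 1037 ± 159 TPM in SLC43A2 sgRNA and 562 ± 83.2 TPM in Mock sgRNA (0.88). Psmb7 averaged 264 ± 21.8 TPM in SLC43A2 sgRNA and 150 ± 13.9 TPM in Mock sgRNA (0.81; SD, n = 3 each). Their limma adjusted p were 0.00388, 0.00452 and 0.00267, and the calls held in all 20 alternatives. At each site the ratio of the immunoproteasome to the constitutive transcript was lower in every SLC43A2 sgRNA library than in every Mock sgRNA library. The ratio of Psmb8 to Psmb5 was 1.90, 1.94 and 2.04 in SLC43A2 sgRNA and 2.54, 2.39 and 2.78 in Mock sgRNA libraries. The ratio of Psmb9 to Psmb6 was 0.370, 0.298 and 0.363 in SLC43A2 sgRNA and 0.614, 0.595 and 0.538 in Mock sgRNA libraries. For Psmb10 to Psmb7 the ratios were 0.593, 0.717 and 0.568 in SLC43A2 sgRNA and 1.51, 1.33 and 2.30 in Mock sgRNA libraries, below 1 in SLC43A2 sgRNA and above 1 in Mock sgRNA. The log2 differences were -0.39 (SE 0.07), -0.76 (SE 0.12) and -1.42 (SE 0.26), each with an exact permutation p of 0.1, the smallest possible, and 0.133 adjusted over the 8 ratios. Across their 10 alternatives these ratios stayed lower in SLC43A2 sgRNA, at -0.93 to -0.17 for Psmb8, -0.95 to -0.67 for Psmb9 and -1.58 to -1.18 for Psmb10.

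**Figure D2:**
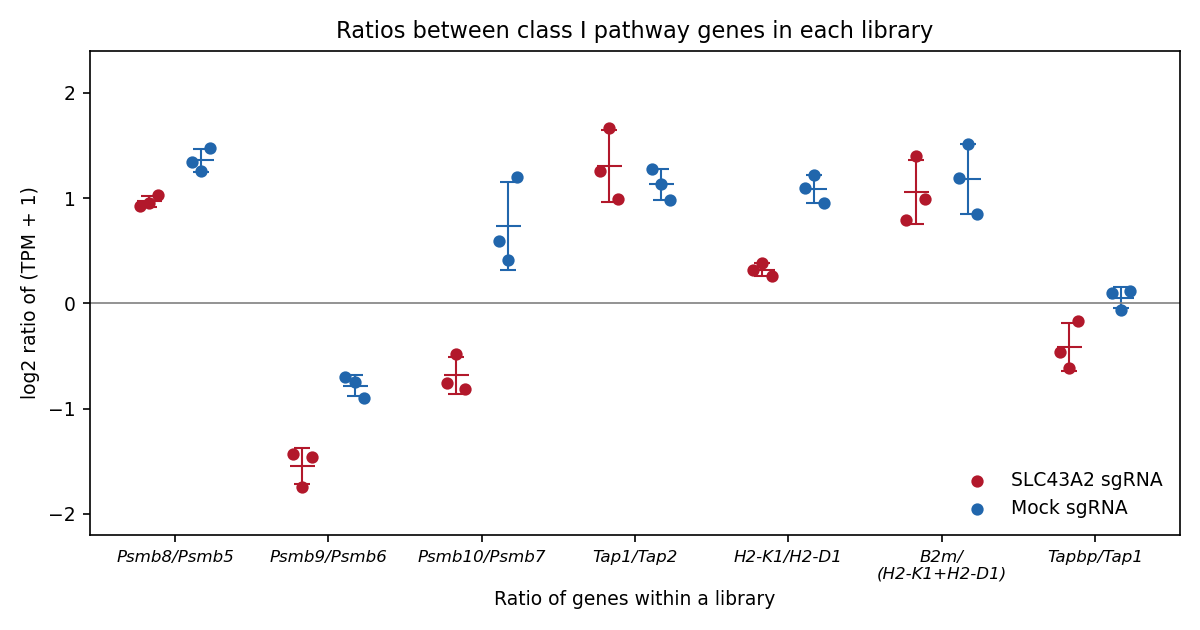
log2 ratio of (TPM + 1) between the named genes within each library, with SLC43A2 sgRNA in red and Mock sgRNA in blue, 3 points a group, a dash at the mean and bars of 1 SD. The ratios to the constitutive subunits, of H2-K1 to H2-D1 and of Tapbp to Tap1 lie lower in SLC43A2 sgRNA without overlap, while those of Tap1 to Tap2 and of B2m to the summed heavy chains overlap.

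Nlrc5 (ENSMUSG00000074151; chromosome 8, 94434356 to 94527272, plus strand) encodes the transactivator that drives heavy chain, B2m, Tap1 and Psmb9 promoters. It stood at 68.2, 78.1 and 59.7 TPM in SLC43A2 sgRNA libraries and at 85.4, 72.1 and 66.0 TPM in Mock sgRNA libraries. The groups overlapped, with a log2 difference of -0.11 and an SE of 0.16 (limma adjusted p = 0.571; 0.162 to 0.955 over 20 alternatives). Ciita, its class II counterpart, stood at 0.71, 0.37 and 0.45 TPM in SLC43A2 sgRNA libraries and at 7.49, 4.59 and 5.84 TPM in Mock sgRNA libraries, with no overlap. The ratio of Nlrc5 to Ciita, each as TPM + 1, was 40.5, 57.8 and 41.9 in SLC43A2 sgRNA and 10.2, 13.1 and 9.79 in Mock sgRNA (exact permutation p = 0.1, the smallest possible). Since Ciita lay below 1 TPM in SLC43A2 sgRNA, the added 1 largely sets these ratios, and their log2 difference of 2.08 ran from 1.49 to 3.21 over the alternatives. In the class II list 9 of 10 tested genes fell and 0 rose (median -2.70), where 22.2% and 22.8% of all tested genes did. The falls were led by Cd74 (125 TPM in SLC43A2 sgRNA, 1076 TPM in Mock sgRNA) and H2-Aa (31.8 TPM in SLC43A2 sgRNA, 273 TPM in Mock sgRNA). The summed level of the B cell and macrophage lists was lower in the same libraries, and its part in this was not tested.

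Around the 10 genes, most proteasome and peptide-loading genes rose. Of all tested genes 22.8% rose and 22.2% fell, and of those of at least 50 TPM 44.4% rose and 15.8% fell. The median log2 differences of these backgrounds were 0.03 and 0.37. All 11 structural subunits of the 20S core rose (median log2 difference 0.75), with Psma7 at 979 ± 108 TPM in SLC43A2 sgRNA and 500 ± 48.7 TPM in Mock sgRNA libraries and Psma5 at 490 ± 11.0 TPM in SLC43A2 sgRNA and 258 ± 26.1 TPM in Mock sgRNA (SD, n = 3 each). Of the 10 activator and assembly genes 8 rose and 0 fell (median 0.75); Psme3, a nuclear activator subunit, rose by 1.14 and the chaperone gene Psmg3 by 0.96. The activator pair induced by interferon gamma was uneven: Psme2 stood at 1563 ± 168 TPM in SLC43A2 sgRNA and 937 ± 128 TPM in Mock sgRNA (log2 difference 0.74, limma adjusted p = 0.00542), while Psme1, at 767 ± 24.6 TPM in SLC43A2 sgRNA and 657 ± 37.5 TPM in Mock sgRNA, did not pass (adjusted p = 0.0905). Of the 10 genes of peptide loading and quality control in the endoplasmic reticulum 8 rose and 0 fell (median 0.84). Pdia3, the disulfide isomerase ERp57 of the loading complex, averaged 332 ± 26.6 TPM in SLC43A2 sgRNA and 163 ± 37.8 TPM in Mock sgRNA libraries (log2 difference 1.04, limma adjusted p = 0.00391), and the glucosidase gene Mogs rose by 1.03. The Mogs call was lost in 3 of 20 alternatives, with SLC43A2 sgRNA replicate 1 or 3 or Mock sgRNA replicate 2 left out (adjusted p up to 0.068). The tapasin relative Tapbpl rose by 0.85 and the trimming peptidase Erap1 by 0.87. Erap1 shares 11.5% of its exon bases with Cast on the other strand. The 2 genes that did not pass, both with overlapping groups, were Calr (0.64, limma adjusted p = 0.0924) and Uggt1 (-0.62, 0.125). The count of 8 higher genes in this list was 3 without SLC43A2 sgRNA replicate 1 or 3 and 4 without Mock sgRNA replicate 2. Psme1, Psme2, Tapbpl, Erap1, Calr and Uggt1 were named after their values were seen.

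Among 6 cytosolic peptidases that trim or destroy peptides, 3 rose and 0 fell (median 0.69), where 22.8% of all tested genes rose and 22.2% fell. Thop1, a peptide-degrading oligopeptidase, rose by 1.22, Blmh by 1.17 and Lap3 by 1.07. Lap3, the interferon-induced leucine aminopeptidase, was named after its values were seen. The Blmh call was lost without SLC43A2 sgRNA replicate 1 or 3 or Mock sgRNA replicate 1 (adjusted p up to 0.0696). In the interferon gamma signal list 9 of 13 rose and 2 fell (median 0.87), beside the same 22.8% and 22.2% of all tested genes. Ifngr2, the second chain of the interferon gamma receptor, averaged 35.7 ± 4.89 TPM in SLC43A2 sgRNA and 8.71 ± 0.641 TPM in Mock sgRNA libraries (log2 difference 1.91, limma adjusted p = 0.000184), and the regulatory factor gene Irf8 averaged 288 ± 51.2 TPM in SLC43A2 sgRNA and 73.9 ± 16.2 TPM in Mock sgRNA (1.96). Irf2, which competes with IRF1 at its sites, fell to 37.1 ± 1.52 TPM in SLC43A2 sgRNA, against 89.7 ± 23.4 TPM in Mock sgRNA, and the kinase gene Jak1 changed by -1.02. Ifng, which encodes interferon gamma, and Irf1, a transcription factor it induces, both rose and were named after their values were seen. Ifng stood at 151, 160 and 149 TPM in SLC43A2 sgRNA and at 48.3, 59.1 and 65.0 TPM in Mock sgRNA libraries (log2 difference 1.41, adjusted p = 0.000509). Irf1 stood at 408, 262 and 377 TPM in SLC43A2 sgRNA and at 116, 109 and 159 TPM in Mock sgRNA libraries (1.43, adjusted p = 0.00260).

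The partners of the class I promoter complex had 1 of 10 genes higher and 2 lower, where 22.8% and 22.2% of all tested genes were (median -0.13, which became 0.08 when the filter was raised to 5 TPM and 0.12 with scaling to T cell receptor and CD3 transcripts). Nfyb, a subunit of the CCAAT-binding factor, rose by 0.75, and the acetyltransferase gene Kat2b stood at 2.79, 2.19 and 3.65 TPM in SLC43A2 sgRNA and at 19.2, 14.8 and 15.4 TPM in Mock sgRNA libraries (log2 difference -2.18, limma adjusted p = 0.000328). Creb1 changed by -0.53 (adjusted p = 0.0442), a call lost in 9 of 20 alternatives, among them without any 1 of 5 libraries.

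**Figure D3:**
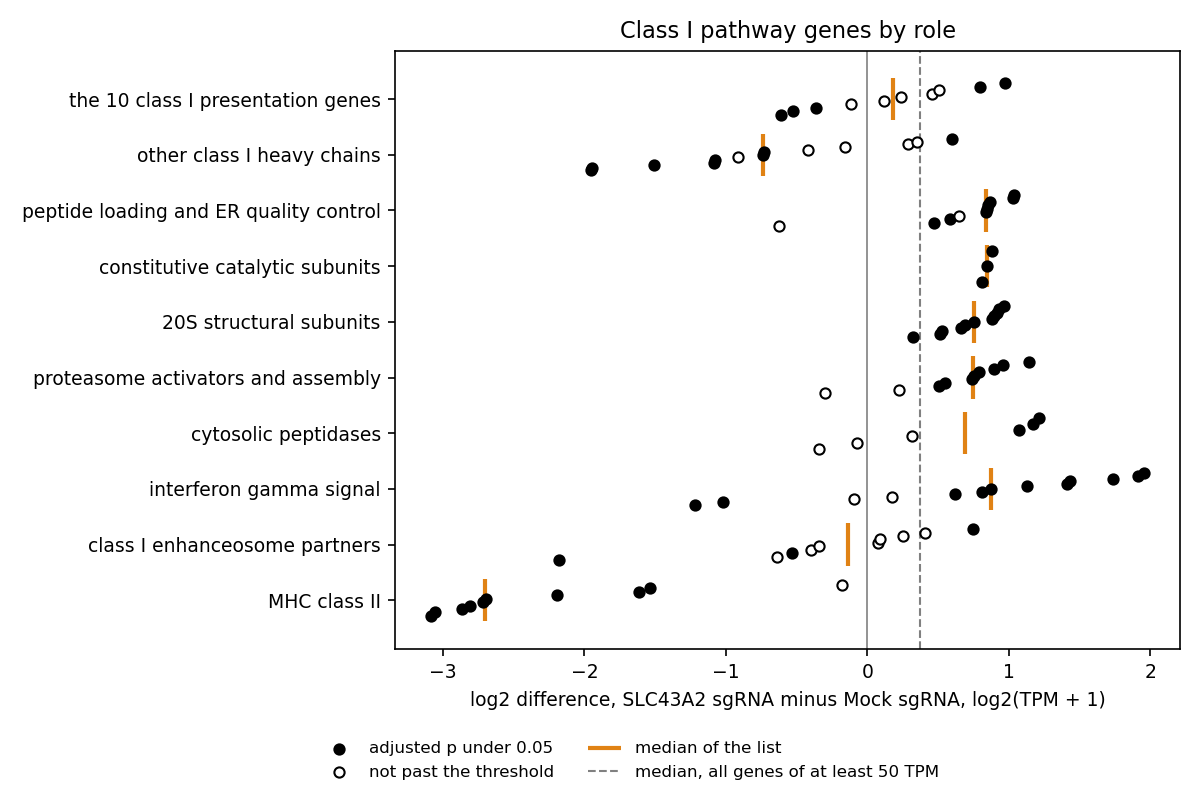
log2 difference of each tested gene, SLC43A2 sgRNA minus Mock sgRNA on the log2(TPM + 1) scale, by list; filled points passed an adjusted p of 0.05, orange lines are list medians and the dashed line is the median of 0.37 over genes of at least 50 TPM. The 10 class I presentation genes spread on both sides of 0, the proteasome and peptide-loading lists lie mostly to the right, and the other heavy chains and class II genes mostly to the left.

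Genes most like Nlrc5 and Tap1 in their pattern over the 6 libraries were found by the root mean square distance between log2 values centred on their own mean, among 9291 other genes of at least 5 TPM. For Nlrc5 these were Tspyl2 (distance 0.06), Ggps1 (0.06) and Npepps (0.07), and 126 genes lay within 0.15. For Tap1 they were Slc35d1 (0.04), Pemt (0.07) and Mid1ip1 (0.07), and 173 genes lay within 0.15.

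A common scaling factor changes every level in a library and leaves ratios between its genes as they are. Scaling to T cell receptor and CD3 transcripts gave a median log2 difference over all tested genes of 0.28 and quantile normalization one of 0.14, beside 0.03 as deposited. Measured against that median, H2-K1 lay between -0.82 and -0.50 and Psmb10 between -1.02 and -0.49 under all settings, Tap1 between 0.61 and 1.00 and Tap2 between 0.51 and 1.00. B2m lay between -0.55 and 0.44 and Psmb9 between -0.32 and 0.14. With marker genes of the B cell, plasma cell, macrophage, neutrophil, erythroid and hepatocyte lists removed and TPM rescaled, Tap1 remained called and Tap2 did not (log2 difference 0.76, adjusted p = 0.0564), and 3 of the 10 genes were lower. This removal changes only the scaling and leaves class I transcripts of those cells in place.

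**Figure D4:**
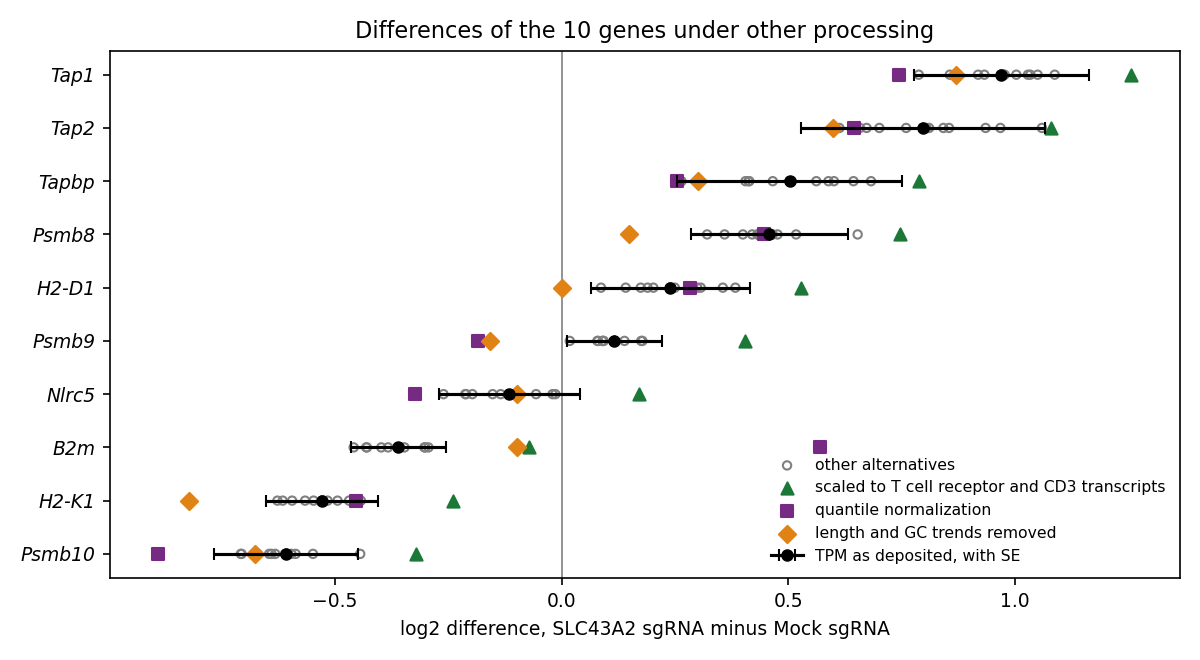
log2 difference of each of the 10 genes, SLC43A2 sgRNA minus Mock sgRNA, under each setting; black points with bars of 1 SE use TPM as deposited and other symbols are the alternatives. Tap1 and Tap2 lie right of 0 and H2-K1 and Psmb10 left of 0 in every setting, whereas B2m, Psmb9 and Nlrc5 change side in at least 1.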

How the data were processed

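The table deposited by the authors holds TPM for each gene and library, rounded to 2 decimals. The submitters' processing notes name Bowtie 0.12.2 and the build mm8 without saying what each was used for, and the counting tool and gene annotation were not given in the sources used here. Since 90.7% of the 57180 gene IDs are in GENCODE M21 (GRCm38), coordinates and exon overlaps come from that annotation, which may not be the authors' own. The kit named in the labels' protocols does not mark strand, and that text speaks of retinas, so it may not describe these samples. TPM keeps no read count: depth is unknown and no counting interval can be given.

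Libraries were grouped by title. On log2(TPM + 1), limma 3.58.1 (R 4.3.3, moderated with a mean trend, two-sided) was fitted to the 13759 genes with a mean of at least 1 TPM. P-values were adjusted by Benjamini-Hochberg over all of them, with a threshold of 0.05. Differences on this scale understate the change of low genes. Ratios were compared by exact permutation of libraries. The 10 genes, the lists and the tests were chosen with earlier results of these data known. Named by rule are the 10 genes, the guide's target, the genes of the ratios and those most like Nlrc5 and Tap1. So are the highest 2 and lowest 2 called genes of each pathway list and the leading marker of some cell lists. Outside this rule are further T cell markers, sex chromosome genes, hepatocyte genes at 0 and genes overlapping others on the opposite strand. Those said to be named after their values were seen are outside it too. Alternatives covered pseudocounts, filters, scalings, gene removals, variance models, weights, replicate number as a block, and each library left out in turn. Removal of length and GC trends, the background of genes of at least 50 TPM and ratios under 2 normalizations were added after seeing the data. Promoter windows are from RefSeq (GRCm38.p6).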

Additional observations from a re-analysis of the deposited data

How the results depend on the processing

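Of all genes, 3139 rose and 3060 fell; 1882 fell among genes of at least 5 TPM, and leaving out 1 library gave 1970 to 3197 higher and 2292 to 2783 lower, the low counts of higher genes arising without SLC43A2 sgRNA replicate 1 (1982) or 3 (1970). The share of higher calls was 50.6% as deposited, 68.3% with scaling to T cell receptor and CD3 transcripts and 60.6% among genes of at least 5 TPM. Of the 10 class I genes, 2 rose and 3 fell. The count of higher genes was 1 with no filter, with antigen receptor, mitochondrial and hemoglobin genes removed, with genes of other cell types removed and with eBayes without trend, 4 with array weights and 6 with scaling to T cell receptor and CD3 transcripts; the count of lower genes was 1 with no filter and with quantile normalization and 0 with scaling to T cell receptor and CD3 transcripts. Leaving out 1 library gave 1 to 3 higher and 1 to 3 lower. The median of the 10 turned to -0.0486 with length and GC trends removed, and that of the promoter complex partners to 0.080 with a filter of 5 TPM and 0.12 with scaling to T cell receptor and CD3 transcripts.

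The H2-K1 difference lost its call with no filter (-0.53), quantile normalization (-0.45) and T cell receptor and CD3 scaling (-0.24), and Psmb10 with the last (-0.32). B2m lost it with no filter or without trend (-0.36), median-of-ratios scaling (-0.30), T cell receptor and CD3 scaling (-0.071) and length and GC trends removed (-0.098), and reversed to 0.57 with quantile normalization. Tap2 lost it with no filter or without trend (0.80), antigen receptor genes removed (0.70) and genes of other cell types removed (0.76). Calls were gained under T cell receptor and CD3 scaling by H2-D1 (0.53), Tapbp (0.79), Psmb8 (0.75) and Psmb9 (0.40), under array weights by Tapbp (0.59) and Psmb8 (0.43), and under robust eBayes by Psmb8 (0.46). Nlrc5 turned to 0.17 under T cell receptor and CD3 scaling, and Psmb9 to -0.18 under quantile normalization and -0.16 with length and GC trends removed. The causes were not tested beyond the construction of each setting. With 1 library left out, log2 differences were 0.61 to 1.06 for Tap2, -0.43 to -0.29 for B2m, -0.71 to -0.44 for Psmb10, 0.32 to 0.65 for Psmb8, -0.0094 to 0.33 for the ratio of Tap1 to Tap2 and -0.29 to 0.042 for that of B2m to the heavy chains.

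Same-numbered libraries did not deviate together over all genes (correlations of their deviations 0.001, 0.06 and -0.03), which does not exclude a pairing by number for some genes. H2-K1, H2-D1, Tap1, Tap2 and Tapbp were each lowest in replicate 2 of both groups, and the other class I genes were not. With the replicate block 3319 genes rose and 3038 fell, and among the 10 genes Tapbp gained a call (0.50, limma adjusted p = 0.0221). Tap1 (0.00662), Tap2 (0.00958), H2-K1 (0.0146), Psmb10 (0.0352) and B2m (0.0428) kept theirs. With 3 libraries a group, the exact tests cannot reach a p under 0.1, and the precision of TPM cannot be judged without counts.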
